A study of Macaca mulatta with 24 samples.

Results

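Ileum on day 7 after 6.7-Gy total-body irradiation (TBI) was compared with unirradiated ileum of the rhesus macaque. The comparison rests on 8 of the 24 arrays, 4 from animals killed on day 7 after 6.7 Gy and 4 from unirradiated animals, chosen by dose and day as the sample titles give them. All animals were young-adult males. The irradiated animals received 1 uniform dose of cobalt-60 gamma rays to the whole body, and the controls were sham-irradiated. The control arrays are titled day 4, and no day 7 control was analysed here, so the time of sampling and the irradiation cannot be told apart. Each array holds RNA of whole gut tissue from a segment of 1 animal's ileum, with every layer of the gut wall in it, so a lower signal from a cell type can mean fewer cells or less RNA per cell, and these cannot be told apart. Ileum taken on day 4 after 6.7 Gy (4 animals) and on day 7 after 7.4 Gy (4 animals) was used for direct comparisons with the day 7 group.

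The lining of the small intestine is renewed from dividing cells in the crypts, and these cells and lymphocytes are among the most radiation-sensitive cells of the body. In the DNA damage response, the transcription factor p53 raises the expression of genes for growth arrest, repair and cell death. The ileal wall also holds a large lymphoid compartment, in Peyer's patches and scattered through the lamina propria, and blood that carries RNA from young red cells into any whole-tissue sample.

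Signals were measured with 1-color Agilent arrays and are given on a log2 scale on which 0 is the 75th percentile of the array. The share of probes well above background was 83.2% to 88.1% in the controls and 78.5% to 86.8% in the day 7 group, and on each of slides 2 and 3 it was lower than on slides 1 and 4. Replicate n of either group lay on slide n, but the controls were in position 1 and the day 7 arrays in position 3 of every slide, so slide position and group cannot be told apart. Of the markers used to check the tissue, the bile acid genes FABP6 and SLC10A2, the epithelial genes VIL1 and CDX2, the mucin gene MUC2 and the smooth muscle gene ACTG2 were well above background on all 8 arrays, whereas the FABP2 probe was above it on 1 array of each group. Control replicate 1 stood apart in its smooth muscle genes. Their mean, taken against the unirradiated average, was -1.85, 0.66, 0.59 and 0.59 in control replicates 1 to 4 and 0.38, 0.43, 0.22 and 0.65 in day 7 replicates 1 to 4. The median of a gene list is given with and without this array where leaving it out turned the sign or moved the value by over 1.5 times.

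On day 7 after 6.7-Gy TBI, 85 of 36108 tested probes were altered (0.235%), 19 upward and 66 downward, where altered means that the groups differed at least 2-fold and that limma's p, adjusted by Benjamini-Hochberg over all tested probes, was under 0.05. The falls included the globin genes HBB and HBA, the dendritic cell gene CLEC9A and the protease gene NAPSA, and the rises included p53 targets, metallothioneins and a few genes of transport and metabolism. The median log2 change of all tested probes was -0.0026, and with the fold limit kept and no adjustment of p, 475 probes differed at 0.05. Taken by its brightest tested probe, 1 probe a gene, 14 of 14241 genes rose (0.0983%) and 35 fell (0.246%). Of the 85 altered probes 63 carry a gene symbol, and in all 85 the 4 irradiated animals lay on one side of the 4 controls. Among all genes, altered or not, 4.7% had all irradiated animals above all controls and 3.89% had them below. The count was 37 without control replicate 1, 39 without control replicate 4, and 51, 48 and 46 without day 7 replicates 1, 2 and 3. With the slide as a replicate block it was 80, in a fit of these 8 arrays alone 36, and in the 8 arrays with the slide as a block 8. The balance of rises and falls differed among settings, with 14 up and 22 down in the 8 arrays, 4 up and 4 down there with the block, 16 up and 26 down (42 in all) with normexp background correction of the median signals, and 2 up and 0 down by the methods' t-test. Of the 30 altered genes named by the rule for named genes, 14 stayed altered whichever of the 8 animals was left out: LOC701643, LCN15, EDA2R, LOC709782, HBB, CLEC9A, NAPSA, HBA, SERPINA2, TLR10, CCR9, ST8SIA4, LOC719781 and CST7.

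**Figure D1:**
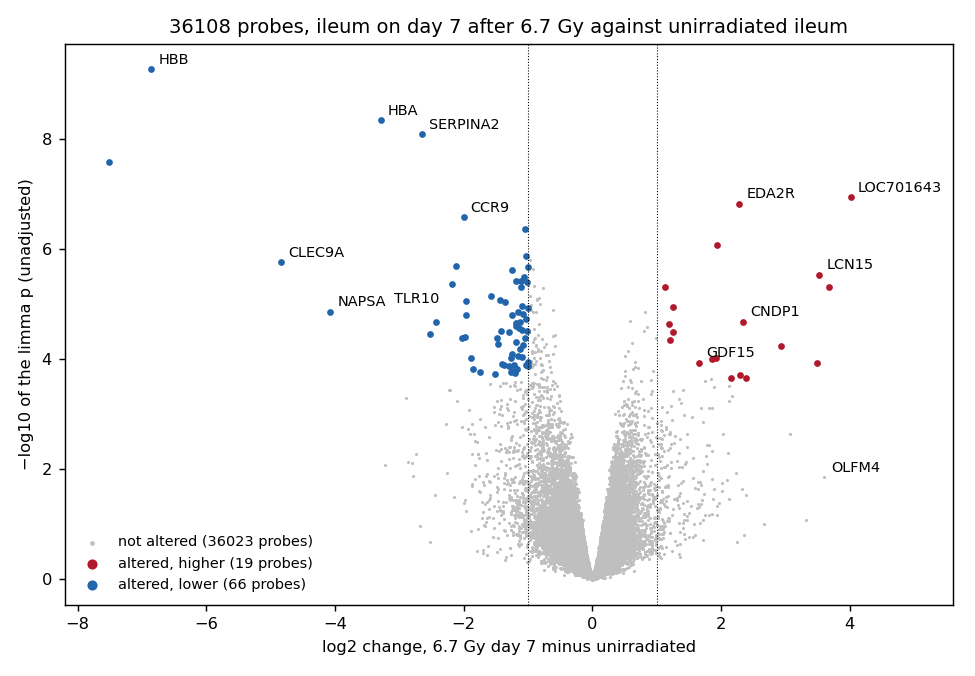
Log2 change of each of 36108 probes (x axis, 6.7 Gy day 7 minus unirradiated) against the negative log10 of its unadjusted limma p (y axis). Grey points are probes that were not altered, red points the 19 altered upward, blue points the 66 altered downward, and dotted lines mark a change of 1 on the log2 scale. The 2 points farthest left are the probes of HBB, and OLFM4 shows a change of 3.60 that did not pass the test.

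Of the 14 genes that rose, EDA2R, GDF15 and DDB2 belong to a list of p53 target genes. EDA2R encodes a receptor of the tumor necrosis factor receptor family. Its log2 signal was -3.69, -2.63, -2.39 and -2.53 in control replicates 1 to 4 and 0.06, -0.92, -0.71 and -0.55 in the irradiated animals. The 4 irradiated animals lay above every control by more than 1 unit, a 4.86-fold increase (log2 change 2.28, standard error 0.29, adjusted p = 9.21e-04). GDF15 encodes a secreted stress cytokine of the TGF-beta family. It was at -0.27, -0.30, -0.23 and 0.08 in the controls and at 1.41, 1.42, 1.88 and 1.23 on day 7. The groups did not overlap, and the rise was 3.17-fold (log2 change 1.66, standard error 0.35, adjusted p = 0.0345). DDB2 encodes a damage-recognition protein of nucleotide excision repair. Its signal went from 0.98, 1.64, 1.67 and 1.80 in the controls to 2.82, 2.68, 2.52 and 2.85, again without overlap, and its pair of probes rose by 1.19 and 1.21 (log2; adjusted p = 0.0143 for the brighter). LOC709782, which the array files describe as pleckstrin homology-like domain family A member 3, rose by 1.26 (adjusted p = 0.0102), from -2.37 ± 0.53 (SD, n = 4) to -1.11 ± 0.24 (SD, n = 4). GDF15 passed in 0 of the 8 fits that leave out 1 animal (adjusted p up to 0.122) and DDB2 in 5, the exceptions being without control replicate 1 or day 7 replicates 1 or 4 (up to 0.0658).

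Most p53 targets were not altered. Of the 28 tested members of the list, 3 rose and 0 fell, where 0.0983% of all genes rose, 18 had a positive change, and the median log2 change was 0.21 against 0.00 for all genes. In 6 members all irradiated animals lay above all controls, where 4.7% of all genes did so, and in 2 they lay below all controls, as in 3.89% of all genes. At the adjusted p alone, with no limit on the fold, ZMAT3 also passed upward (0.80), where 0.14% of all genes did. CDKN1A, the p53-induced inhibitor of cyclin-dependent kinases, was at 4.71, 3.68, 3.94 and 3.48 in the controls and 4.56, 4.49, 4.24 and 4.07 on day 7. The groups overlapped and the log2 change was 0.38 (adjusted p = 0.668). MDM2, the ubiquitin ligase that limits p53, changed by 0.12 in its brighter probe and by 0.85 in its other probe, and the death receptor FAS by 0.28 (adjusted p = 0.66).

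Several rises came from dim probes, and they were smaller with normexp correction of the median signals, which also adds an offset of 50. Which part of that setting made them smaller was not tested. LOC701643, annotated as ankyrin repeat and SOCS box protein 10-like, was at -8.09, -6.58, -8.28 and -5.35 in the controls, of which 1 was well above background, and at -2.67, -3.02, -2.87 and -3.69 in the irradiated animals. The groups did not overlap (log2 change 4.01, standard error 0.50, adjusted p = 8.42e-04). LCN15 encodes a lipocalin, a small secreted carrier of lipophilic molecules. It was at -6.04, -5.51, -6.21 and -5.12 in the controls, with 3 of 4 well above background, and at -1.79, -1.70, -2.94 and -2.36 on day 7, without overlap (3.52, adjusted p = 0.00626). CNDP1 encodes a dipeptidase that cleaves carnosine. Its signal was -4.78, -4.63, -4.56 and -4.94 in the controls and -2.57, -2.51, -2.11 and -2.37 on day 7, a 5.05-fold rise (adjusted p = 0.0138). SERPINB5, which encodes the serpin maspin, rose by 2.94 (adjusted p = 0.0222) with 2 controls well above background, and its other probe changed by 2.02. CNDP1 did not pass without control replicates 1 or 4 or day 7 replicate 3 (adjusted p up to 0.0557), nor SERPINB5 without control replicates 1 or 2 or day 7 replicates 1, 3 or 4 (up to 0.0986). With normexp background correction of the median signals the log2 changes were smaller, 1.31 for LOC701643, 1.16 for SERPINB5 and 1.42 for CNDP1, which still passed, and 1.75 for LCN15, which did not (adjusted p = 0.0845).

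Among brighter probes, SLC1A1 and CPS1 rose. SLC1A1 is a glutamate and aspartate transporter of the brush border. Its signal was 0.95, 0.29, 0.49 and -0.70 in the controls and 2.58, 1.91, 2.13 and 2.10 on day 7, a 3.79-fold difference without overlap (adjusted p = 0.0307). CPS1, the mitochondrial enzyme that makes carbamoyl phosphate for the urea cycle, went from 2.88, 3.00, 2.66 and 2.02 to 3.96, 4.01, 3.54 and 4.06 (2.38-fold, adjusted p = 0.0165), and its other probe changed by 1.37. The cytochrome P450 gene CYP2F1 rose by 2.38 (adjusted p = 0.0494), and with the slide as a replicate block it did not pass (adjusted p = 0.0933). Leaving out 1 animal, SLC1A1 passed without control replicate 1 and in none of the other 7 fits (adjusted p up to 0.121), CPS1 in 4 of 8 (up to 0.0759, not without control replicate 4 or day 7 replicates 1, 2 or 4) and CYP2F1 in 0 of 8 (up to 0.152). DEPDC1B, named here after its value was seen, completed the 14 with a rise of 1.13.

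Metallothioneins, small cysteine-rich proteins that bind zinc and copper, supplied 2 of the 14 genes. MT1X was at 3.31, 3.61, 4.04 and 3.17 in the controls and 6.88, 5.76, 4.76 and 5.33 on day 7, with all irradiated animals above all controls (log2 change 2.15, adjusted p = 0.0494). MT1E was at 4.40, 5.04, 5.55 and 4.57 and 7.41, 6.85, 6.36 and 6.38, also without overlap (1.86, adjusted p = 0.0318). Both were close to the threshold, and with the slide as a replicate block the adjusted p was 0.0587 for MT1X and 0.0633 for MT1E. With normexp correction MT1X did not pass either (adjusted p = 0.0675). With 1 animal left out, MT1X passed only without day 7 replicate 3 (adjusted p up to 0.181 in the other 7 fits) and MT1E only without control replicate 3 (up to 0.129). The family was looked at after these values were seen. Of its 16 tested probes, 15 had a positive change, between 0.85 and 2.29, 11 did not overlap between the groups and 3 were altered, where 0.235% of all probes were altered and 4.7% of all genes lay above all controls, the third altered probe being the dimmer one of MT2A (2.29, adjusted p = 0.0447). The exception in sign was MT3 (-0.07). Metallothionein genes are close copies of each other, so a probe may read several of them.

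Both adult globin genes fell, and HBB fell most of the 35 genes. HBB, the beta chain of hemoglobin, was at 0.80, 1.38, 2.51 and 2.76 in the controls and at -6.03, -4.57, -4.36 and -5.01 on day 7. Every irradiated animal lay more than 5 log2 units below every control, a 115.9-fold difference (log2 change -6.86, standard error 0.62, adjusted p = 2.00e-05). With normexp correction the log2 change of HBB was -5.34. The other HBB probe was not well above background on any irradiated array and was at least 45-fold lower, taking the lowest signal well above background on each array as its limit. HBA, the alpha chain, was at 0.37, 0.75, 2.07 and 2.37 in the controls and -2.11, -1.66, -1.80 and -2.0 on day 7 (9.76-fold lower, adjusted p = 8.35e-05). The probe of SERPINA2, annotated as an alpha-1-antitrypsin-related gene, took a similar course, from -0.28, 0.15, 1.37 and 1.44 to -2.10, -1.83, -2.11 and -1.87 (log2 change -2.65, adjusted p = 1.00e-04). In all 3 genes control replicates 3 and 4 were higher than control replicates 1 and 2. The SD of the irradiated animals was 0.74 for HBB, 0.20 for HBA and 0.15 for SERPINA2 (n = 4).

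The other genes of the erythroid list were not altered in their brightest probes. Of its 18 tested members, HBB and HBA fell and 0 rose, where 0.246% of all genes fell and 0.0983% rose, 8 had a positive change, and the median was -0.12 (-0.19 without control replicate 1). The brightest probe of the fetal globin gene HBG2 changed by -0.22 and a dimmer one fell by 1.96 (adjusted p = 0.00899). Genes of red cell precursors changed by 0.02 (AHSP, the chaperone of alpha globin) and 0.03 (TFRC, the transferrin receptor). ALAS2, the erythroid enzyme of heme synthesis, has a probe that did not pass the filter on dim probes.

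**Figure D2:**
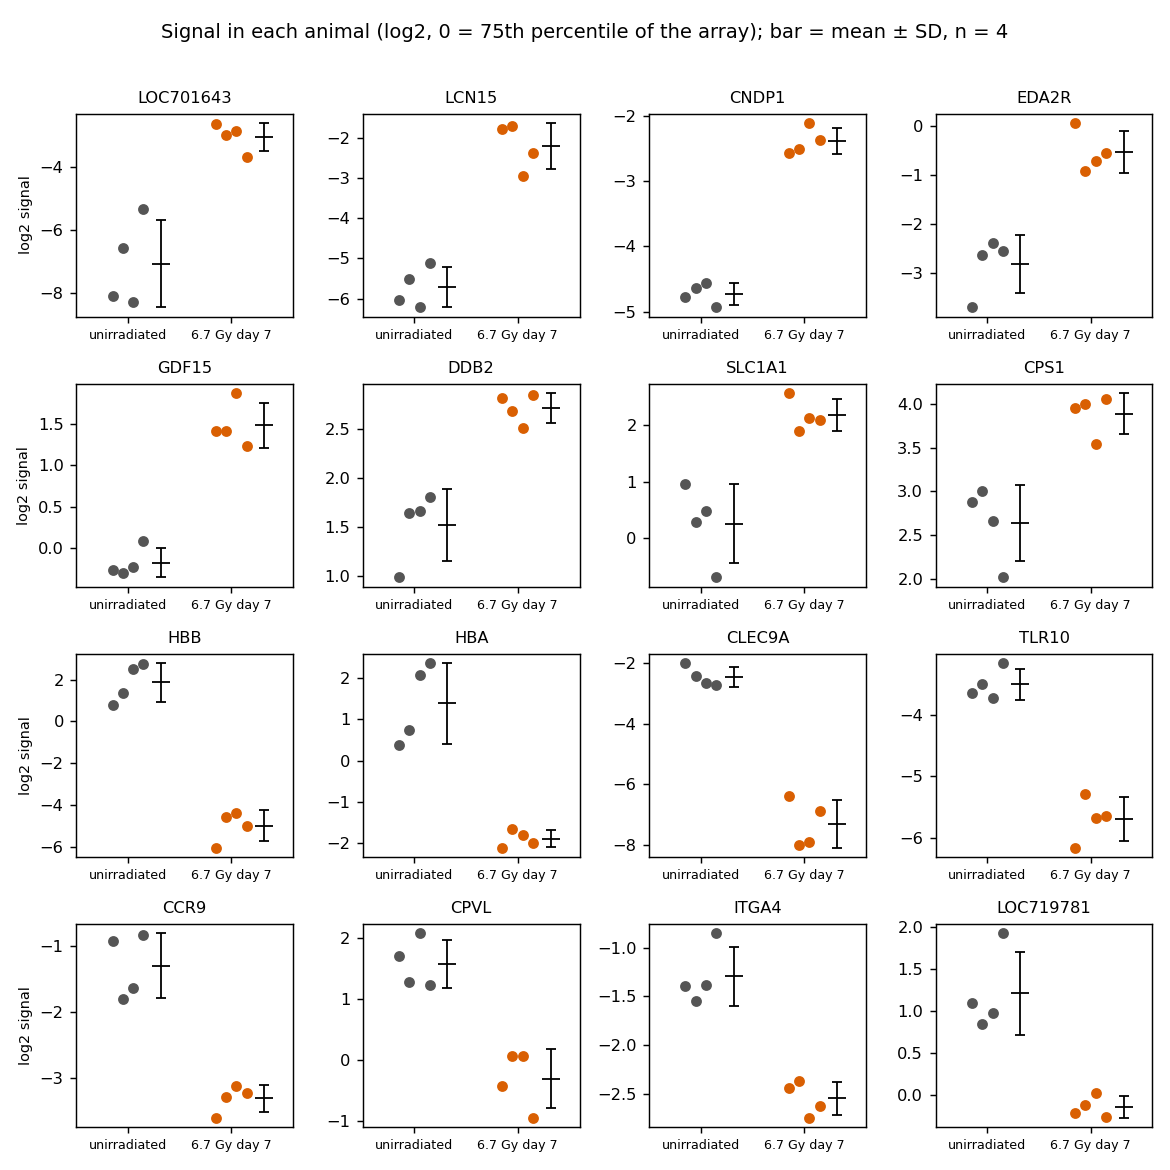
Log2 signal of 16 altered genes in each of the 4 unirradiated animals (grey points) and the 4 animals on day 7 after 6.7 Gy (orange points), replicates 1 to 4 from left to right. The y axis is log2 signal with 0 at the 75th percentile of the array, bars are mean ± SD (n = 4), and in every panel the orange points lie on one side of the grey points.

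Dendritic cells carry antigen from the gut wall to T cells, and CLEC9A and FLT3 among their marker genes fell. CLEC9A, a receptor of the cross-presenting type of dendritic cell, was at -1.99, -2.43, -2.67 and -2.72 in the controls and at -6.40, -8.00, -7.92 and -6.88 on day 7. The irradiated animals lay more than 3 log2 units below every control, and 1 of them was well above background (log2 change -4.84, standard error 0.73, adjusted p = 0.0053). FLT3, the receptor of the cytokine that dendritic cells depend on, went from -4.27, -4.53, -4.68 and -4.77 to -7.02, -6.68, -6.44 and -5.12, with 1 irradiated animal above background (-1.75, adjusted p = 0.0414). With 1 animal left out FLT3 passed only without day 7 replicate 4, its highest irradiated value (adjusted p up to 0.162 in the other 7 fits). With normexp correction CLEC9A changed by -1.66 and passed (adjusted p = 0.0047), and FLT3 changed by -0.39 and did not (adjusted p = 0.0922). Of the 7 tested dendritic cell genes these 2 fell and 0 rose, and 4 had all irradiated animals below all controls, where 0.246% and 3.89% of all genes did so. CD1C (-1.60, adjusted p = 0.179) and FCER1A (-1.91, adjusted p = 0.101) were the others of the 4, whereas XCR1 changed by -0.22, IRF8 by -0.02 and ZBTB46 by 0.07. The list median was -1.60, and -1.74 to -0.02 over the alternatives, the latter with the 3 members that were well above background on all 24 arrays.

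CPVL and NAPSA, a pair of protease genes, also fell. CPVL, a carboxypeptidase known from macrophages and dendritic cells, was at 1.70, 1.28, 2.08 and 1.23 in the controls and -0.43, 0.07, 0.06 and -0.95 on day 7, without overlap (3.69-fold lower, adjusted p = 0.0307). NAPSA encodes an aspartic protease. Its brighter probe went from -1.24, -0.97, -1.52 and -1.44 to -5.99, -5.12, -4.58 and -5.79 (log2 change -4.08, adjusted p = 0.0106), but its other probe changed by -0.09, so the probes of this gene disagree. CPB2, a carboxypeptidase that slows fibrinolysis, fell by 1.47 (adjusted p = 0.0219), with 1 irradiated animal well above background. With 1 animal left out, CPVL passed only without control replicate 2 (adjusted p up to 0.111 in the other 7 fits), and CPB2 only without control replicate 3 or day 7 replicate 1 (up to 0.087). With normexp correction NAPSA changed by -2.48 and passed (adjusted p = 0.00172), and CPB2 changed by -0.10 and did not (adjusted p = 0.89).

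Of the 16 tested macrophage and monocyte genes, 0 were altered, where 0.0983% of all genes rose and 0.246% fell. In this list 5 had a positive change and the median was -0.20 (-0.08 without control replicate 1). CSF1R, the receptor of the macrophage growth factor, was lower by 0.97 and passed at the adjusted p alone (0.00861), where 0.47% of all genes passed downward. C1QA and C1QC, subunits of complement C1q made by tissue macrophages, changed by -0.25 and -0.14, and CD14 by 0.23.

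The chemokine receptor CCR9 and the integrin chain ITGA4, which bring lymphocytes to the gut, fell. CCR9, the receptor of the small-intestinal chemokine CCL25, was at -0.93, -1.80, -1.63 and -0.83 in the controls and -3.59, -3.28, -3.12 and -3.22 on day 7. Every irradiated animal was more than 1 unit below every control, a 4.01-fold fall (log2 change -2.0, standard error 0.26, adjusted p = 0.00139), while the probe of CCL25 itself changed by -0.27. ITGA4, the alpha-4 integrin chain with which lymphocytes hold on to gut vessels, went from -1.39, -1.55, -1.39 and -0.85 to -2.44, -2.37, -2.75 and -2.63 (2.39-fold lower, adjusted p = 0.0113), and its other probe changed by -1.24. ITGA4 did not pass without control replicate 4 or day 7 replicate 3 (adjusted p up to 0.0556). A dimmer probe of GPR15, another homing receptor, named after its value was seen, was not above background in any irradiated animal and was at least 2.36-fold lower (adjusted p = 0.0113). The brightest probe of GPR15 was not altered, so by the rule used here this gene is not among those that fell. In the list of leukocyte chemokine and adhesion genes, 2 of 38 tested members fell, CCR9 and ITGA4, and 0 rose, where 0.246% and 0.0983% of all genes did so, and the median was -0.05 (-0.14 without control replicate 1).

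Several genes known from B cells and other lymphocytes also fell. TLR10, a toll-like receptor of B cells, was at -3.64, -3.51, -3.73 and -3.16 in the controls and -6.16, -5.30, -5.68 and -5.65 on day 7 (4.56-fold lower, adjusted p = 0.00652). BTK, the kinase downstream of the B cell receptor, went from -2.50, -2.72, -2.56 and -1.38 to -3.46, -3.46, -3.47 and -3.94, without overlap (-1.30, adjusted p = 0.0165). The BTK difference did not pass with the slide as a replicate block (adjusted p = 0.0533). STAP1, an adaptor of the same receptor, fell by 1.51 (adjusted p = 0.0443) and did not pass with that block either (adjusted p = 0.0732). LOC719781, annotated as SLAM family member 7, a receptor of plasma cells and natural killer cells, went from 1.1, 0.85, 0.98 and 1.93 to -0.21, -0.12, 0.03 and -0.26 (2.55-fold lower, adjusted p = 0.00914). CST7, a cysteine protease inhibitor of cytotoxic cells, went from 1.34, 1.02, 0.94 and 0.68 to 0.01, -0.19, -0.65 and 0.07 (2.28-fold lower, adjusted p = 0.00652). BCL2A1, an anti-apoptotic protein of blood cells, fell by 1.41 (adjusted p = 0.0351) and ST8SIA4, a polysialic acid transferase, by 1.44 (adjusted p = 0.00899). With 1 animal left out, BTK did not pass without control replicate 4 or day 7 replicate 4 (adjusted p up to 0.0649), STAP1 passed only without control replicate 2 (up to 0.137 otherwise) and BCL2A1 only without control replicate 3 or day 7 replicate 4 (up to 0.132). With normexp correction the change of TLR10 was -0.95, under the fold limit (adjusted p = 5.39e-04), as were those of BTK (-0.88, adjusted p = 0.039) and BCL2A1 (-0.97, adjusted p = 0.0299), that of STAP1 was -0.71 (adjusted p = 0.134) and that of ST8SIA4 -0.51 (adjusted p = 0.108).

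The other 18 genes that fell did so by 1.0 to 1.2 on the log2 scale and are named here after their values were seen. They include CORO1A, RAC2, ARHGDIB, ARHGAP25, TAGAP and TBC1D10C, which act on the actin skeleton or on small GTPases in blood cells, the lymphocyte regulators IKZF3, SLA, SIRPG and LPXN, and the lymphocyte receptors GPR183 and P2RY10. The rest were CD101, CARD9, TARP, H2BC11, LOC720264 and LOC704061. With the slide as a replicate block 6 of the 18 did not pass, CD101 (adjusted p = 0.0654), CARD9 (0.0633), TAGAP (0.0536), GPR183 (0.0614), SIRPG (0.0689) and P2RY10 (0.0633). Of the 15 altered genes with several tested probes, 14 had all probes on the same side of 0, the exception being TBC1D10C, but the other probe of CARD9 changed by -0.15 and that of ARHGAP25 by -0.19.

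The lymphocyte lists had few altered members but low medians. B cell genes had a median of -0.74, with 10 of 11 tested below 0 and 1 altered, BTK. T cell genes had a median of -0.77, with 15 of 16 below 0 and 0 altered, and in 6 the irradiated animals all lay below the controls, among them CD3D (-0.77), CD2 (-0.69) and ICOS (-0.99). Cytotoxic lymphocyte genes had a median of -0.76, with 15 of 16 below 0, 5 below all controls and 1 altered, CST7. Plasma cell genes had a median of -0.83, with 10 of 11 below 0 and 0 altered, and germinal centre genes a median of -0.22, with 0 of 8 altered. With normexp correction the median was -0.48 for T cell and -0.51 for cytotoxic lymphocyte genes, and that of plasma cell genes was -0.53 without control replicate 4, these being the values nearest 0 over the alternatives. For comparison, the median of all genes was 0.00, 3.89% of all genes had their irradiated animals below all controls and 0.246% fell.

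Taken animal by animal, the T cell mean was 0.18, -0.22, 0.04 and -0.00 in the controls and -0.82, -0.54, -0.72 and -0.57 in the irradiated animals, which all lay below all controls. The B cell mean was -0.31, -0.47, -0.06 and 0.84 and -1.54, -0.62, -0.53 and -0.70, with control replicate 4 the highest and day 7 replicate 1 the lowest. Single B and plasma cell genes spread widely among animals. MS4A1, the B cell antigen CD20, was at -5.79, -6.29, -5.29 and -3.48 in the controls and -9.04, -5.67, -5.55 and -7.22 on day 7, and the groups overlapped (adjusted p = 0.651). JCHAIN, the joining chain of secreted antibodies, was at 2.85, 4.35, 4.77 and 3.48 and 2.82, 3.75, 2.70 and 2.87, with overlap (adjusted p = 0.516). CD3E, a chain of the T cell receptor complex, was at 1.01, 0.53, 0.76 and 0.22 and -0.23, 0.25, -0.52 and -0.05, where day 7 replicate 2 lay just above the lowest control (log2 change -0.77, adjusted p = 0.189).

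Antigen presentation and interferon genes had medians below 0 without an altered member, where 0.246% of all genes fell. All 9 tested MHC class II genes had a negative change, with a median of -0.70 and the lowest value in MAMU-DOB (-1.27). None had its irradiated animals all below the controls, where 3.89% of all genes did so. Their mean was 0.63, -0.16, 0.06 and -0.53 in the controls and -0.71, -0.75, -0.54 and -0.83 on day 7, with control replicate 1 the highest, and the median without that animal was -0.52. Interferon-stimulated genes had a median of -0.25, with 26 of 31 below 0 and 0 altered, and -0.12 without control replicate 1. Their mean was 0.51, -0.16, -0.27 and -0.09 in the controls and -0.14, -0.23, -0.70 and -0.10 on day 7, and the groups overlapped. The lowest of them was TRIM22 (-1.60, adjusted p = 0.542) and the next ISG15 (-1.29, adjusted p = 0.265).

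**Figure D3:**
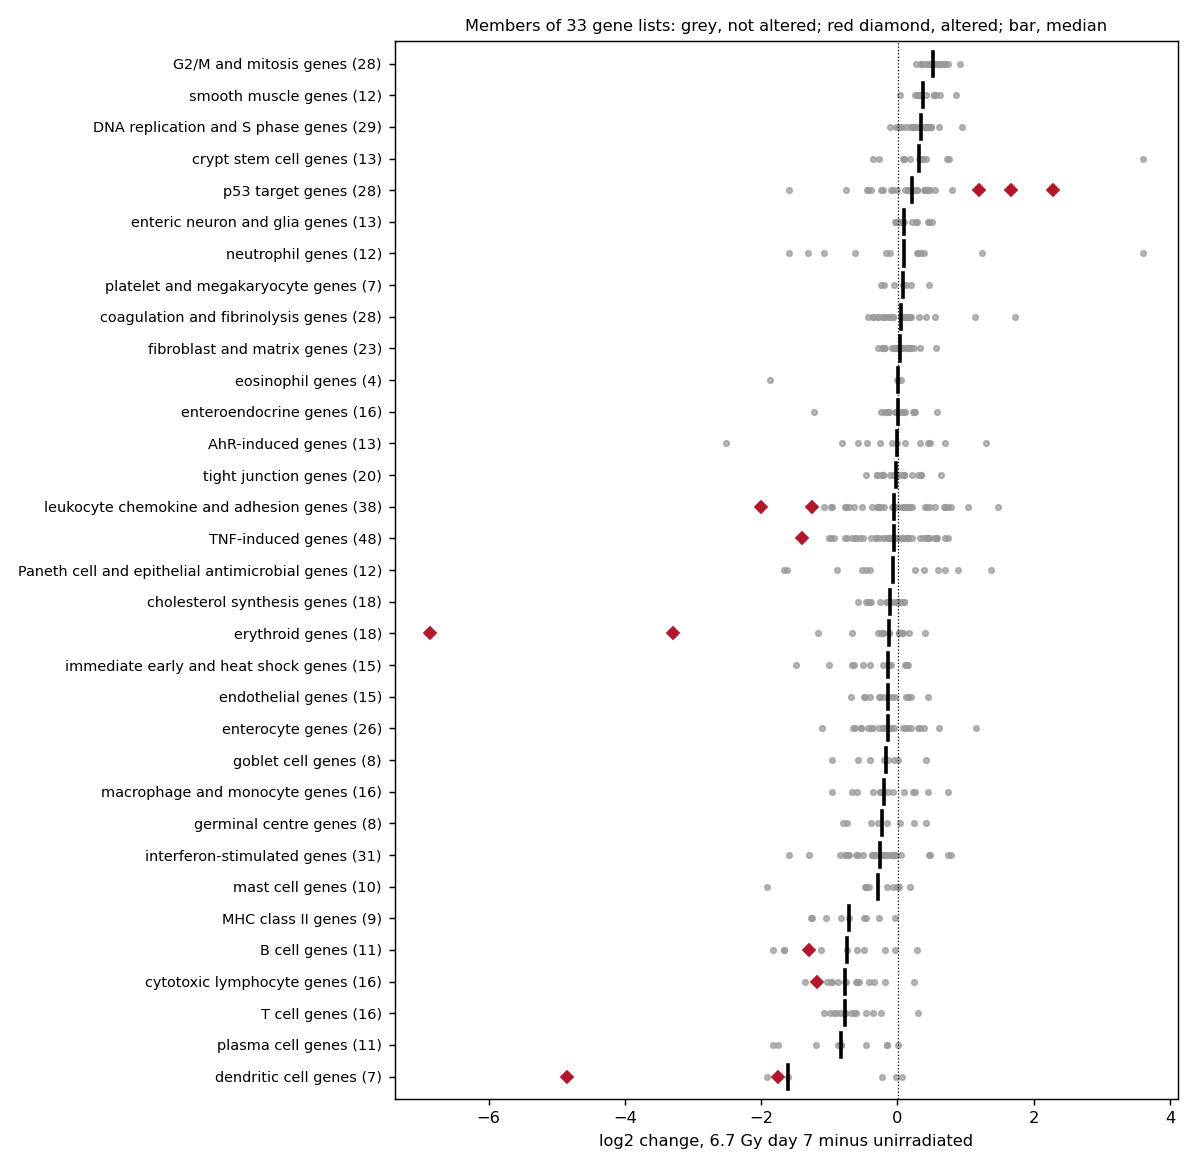
Log2 change (x axis, 6.7 Gy day 7 minus unirradiated) of every tested member of 33 gene lists (y axis, number tested in brackets), ordered by median. Grey points are members that were not altered, red diamonds altered members, black bars list medians and the dotted line the median of all genes, and the lowest median is that of the dendritic cell genes (-1.60) and the highest that of the G2/M and mitosis genes (0.53).

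Genes of dividing cells were higher as a group, by less than the fold limit. All 28 tested G2/M and mitosis genes had a positive change, from 0.27 in KIF20A to 0.91 in PLK1, with a median of 0.53. In 19 of the 28 all irradiated animals lay above all controls, where 4.7% of all genes did so, and 0 were altered. PLK1, a kinase of mitotic entry (adjusted p = 0.0972), CDC25C, the phosphatase that activates CDK1 (0.70), and PTTG1, the securin that holds sister chromatids together (0.69), were among the 19. The list mean was -0.17, 0.01, -0.03 and 0.19 in the controls and 0.47, 0.48, 0.66 and 0.57 on day 7, without overlap, and the median was 0.49 without control replicate 1. DNA replication and S phase genes had a median of 0.34, with 27 of 29 above 0 and 9 above all controls. TYMS, thymidylate synthase, was higher by 0.95 and passed at the adjusted p alone (0.0405), and PCNA, the replication clamp, changed by 0.45 (adjusted p = 0.436). All members of a list were read in the same 8 animals, so they are not independent observations.

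Crypt stem cell genes had a median of 0.31, with 11 of 13 above 0, 5 above all controls and 0 altered, against a median of 0.00 and 4.7% above all controls for all genes. OLFM4, a secreted glycoprotein of crypt base cells and of neutrophils, was at -7.42, -7.42, -6.90 and -6.35 in the controls, of which 1 was well above background, and at -5.63, -3.31, -2.11 and -2.64 on day 7. All irradiated animals were above all controls and spread over more than 3 log2 units. The change of 3.60 did not pass in limma (adjusted p = 0.348). That test pools the spread of all 7 groups, and the day 4 animals after 6.7 Gy had an SD of 4.05. LGR5, the stem cell receptor of R-spondins, was at -3.14, -2.64, -2.75 and -2.57 and -2.80, -2.67, -2.85 and -2.48, with overlap (log2 change 0.08, and -0.04 without control replicate 1). LRIG1, a brake on growth factor receptors in stem cells, changed by 0.76 (adjusted p = 0.0533) and SOX9, a crypt transcription factor, by 0.37 (adjusted p = 0.7).

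**Figure D4:**
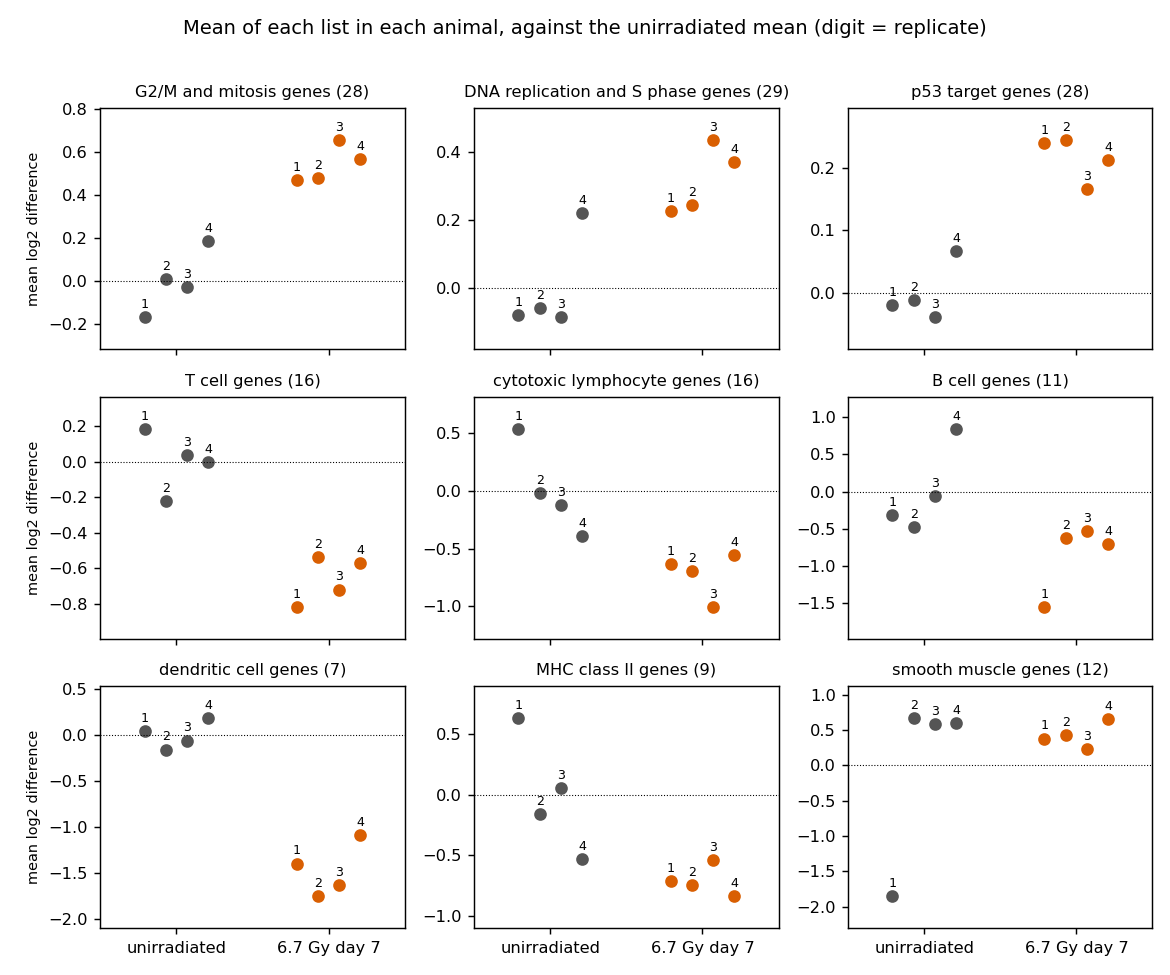
Mean log2 difference from the unirradiated average (y axis) of the members of 9 gene lists in each unirradiated animal (grey) and each animal on day 7 after 6.7 Gy (orange), with the replicate number beside each point and the number of genes in brackets. The orange points lie above all grey points for the G2/M, S phase and p53 lists and below all of them for the 5 leukocyte lists, narrowly for the S phase, B cell and MHC class II lists, and control replicate 1 stands apart in the smooth muscle list.

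Epithelial lists stayed near the median of all genes. Enterocyte genes had a median of -0.15 with 0 of 26 altered (0.01 without control replicate 1). Over all genes 0.0983% rose and 0.246% fell, so 0 altered in lists of this size is no different from all genes. FABP6, the ileal bile acid binding protein, was at 8.78, 8.75, 8.75 and 8.66 in the controls and 8.91, 8.92, 8.98 and 8.90 on day 7 and did not pass although the groups did not overlap (log2 change 0.20, adjusted p = 0.883). MUC2, the main mucin of goblet cells, was at 4.72, 5.31, 5.37 and 5.48 and 4.76, 5.23, 5.12 and 5.56, with overlap (log2 change -0.05). The medians were -0.16 for goblet cell genes (0 of 8 altered), -0.07 for Paneth cell and antimicrobial genes (0 of 12), 0.01 for enteroendocrine genes (0 of 16) and -0.03 for tight junction genes (0 of 20). Without control replicate 1 they were -0.17 for the Paneth, -0.03 for the enteroendocrine and 0.0014 for the tight junction list. A dimmer probe of LCT, the lactase gene, was not above background in any control and was at least 5.61-fold higher on day 7 (adjusted p = 0.0351), while its brightest probe changed by 0.61 (adjusted p = 0.78), and this gene was named after its values were seen.

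In the stromal lists 0 members were altered, where 0.0983% of all genes rose and 0.246% fell. Smooth muscle genes had a median of 0.38 with all 12 above 0, and this turned to -0.25 without control replicate 1. The median of enteric neuron and glia genes was 0.10 and became -0.07 without that control, and that of fibroblast and matrix genes went from 0.04 to -0.14. Endothelial genes had a median of -0.14. The matrix metalloproteinase MMP2 was at 1.44, 2.17, 2.16 and 1.76 in the controls and 2.59, 2.75, 1.92 and 2.55 on day 7, with overlap (adjusted p = 0.452). MMP12, the macrophage elastase, ranged from -3.95 to -1.09 in the controls and from -3.16 to 0.90 on day 7 (log2 change 1.56, standard error 1.09, adjusted p = 0.73).

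Of 48 tested TNF-induced genes BCL2A1, which normexp correction left under the fold limit, fell and 0 rose, where 0.246% and 0.0983% of all genes did so (median -0.06, 22 above 0, and 0.0070 without control replicate 1). TNF itself changed by -0.32 (adjusted p = 0.876). The lymphoid chemokine CCL19 was at -1.74, -1.98, -1.33 and -0.73 in the controls and -0.45, -0.01, 0.68 and -0.10 on day 7, and all irradiated animals were above all controls, but the change of 1.47 did not pass (adjusted p = 0.169). CCL21, the other ligand of the same receptor, changed by 0.10 and the monocyte chemokine CCL2 by 0.43 (adjusted p = 0.718). The medians of the lists without an altered member were -0.14 for immediate early and heat shock genes, 0.06 for coagulation and fibrinolysis genes, -0.11 for cholesterol synthesis genes and -0.01 for genes induced by the aryl hydrocarbon receptor. Without control replicate 1 these medians were -0.08, -0.09, -0.03 and 0.16, in the same order. Among lists of other blood cells without an altered member they were 0.09 for neutrophils, -0.29 for mast cells, 0.01 for eosinophils and 0.08 for platelets and megakaryocytes. Without control replicate 1 they were 0.16 for neutrophils, -0.08 for eosinophils and -0.07 for platelets and megakaryocytes.

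Day 7 was compared directly with day 4 after the same dose to test where the later time differed. Of 36108 probes, 128 were altered (0.354%), 88 higher and 40 lower on day 7, and by genes 41 were higher (0.288%) and 24 lower (0.169%). GDF15 was at 3.87, 3.71, 2.84 and 4.18 in the day 4 animals, all above every day 7 animal (1.41, 1.42, 1.88 and 1.23), so day 7 was lower by 2.16 (standard error 0.35, adjusted p = 0.00836). DDB2 (-1.11, adjusted p = 0.0228) and LOC709782 (-1.15, adjusted p = 0.0193) were also lower on day 7 than on day 4, as were LCN15 (-2.27, adjusted p = 0.0497) and CNDP1 (-1.78, adjusted p = 0.0476). EDA2R was at 0.56 ± 0.59 (SD, n = 4) on day 4 and -0.53 ± 0.42 (SD, n = 4) on day 7, a difference that did not pass (adjusted p = 0.0704). The chemokines CCL21 (-1.02, adjusted p = 0.022) and CCL2 (-1.28, adjusted p = 0.0428), not altered against the controls, were lower on day 7 than on day 4. In the p53 list 3 of 28 genes were lower than on day 4, GDF15, DDB2 and PLK2 (-1.56, named after its value was seen), and 0 were higher.

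Among the genes that had fallen against the controls, ST8SIA4 was lower on day 7 than on day 4 (-1.02, adjusted p = 0.0476), and CST7 passed at the adjusted p alone (-0.83, adjusted p = 0.0397). The other altered genes named by the rule that fell did not pass. HBB was at -4.44, -3.03, -4.90 and -4.61 on day 4, with 3 of the 4 animals inside the day 7 range (difference -0.75, adjusted p = 0.513). CCR9 was at -3.36, -3.07, -2.38 and -3.08 on day 4 (difference -0.33, adjusted p = 0.499). CLEC9A was at -7.17, -4.40, -3.01 and -3.78 on day 4, spread widely (difference -2.71, adjusted p = 0.0729). With the slide as a replicate block 60 probes were altered, and of the genes named here GDF15 (adjusted p = 0.0368) and CCL21 (adjusted p = 0.0368) passed. The adjusted p with the block was 0.0652 for DDB2, 0.0641 for LOC709782, 0.159 for LCN15, 0.117 for CNDP1, 0.0894 for CCL2 and 0.115 for ST8SIA4, none of which passed. The count was 48, 52, 32 and 73 without day 7 replicates 1, 2, 3 and 4, 48 without day 4 replicate 2, and 0 in a fit of these 8 arrays alone, and slide position and day cannot be told apart.

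**Figure D5:**
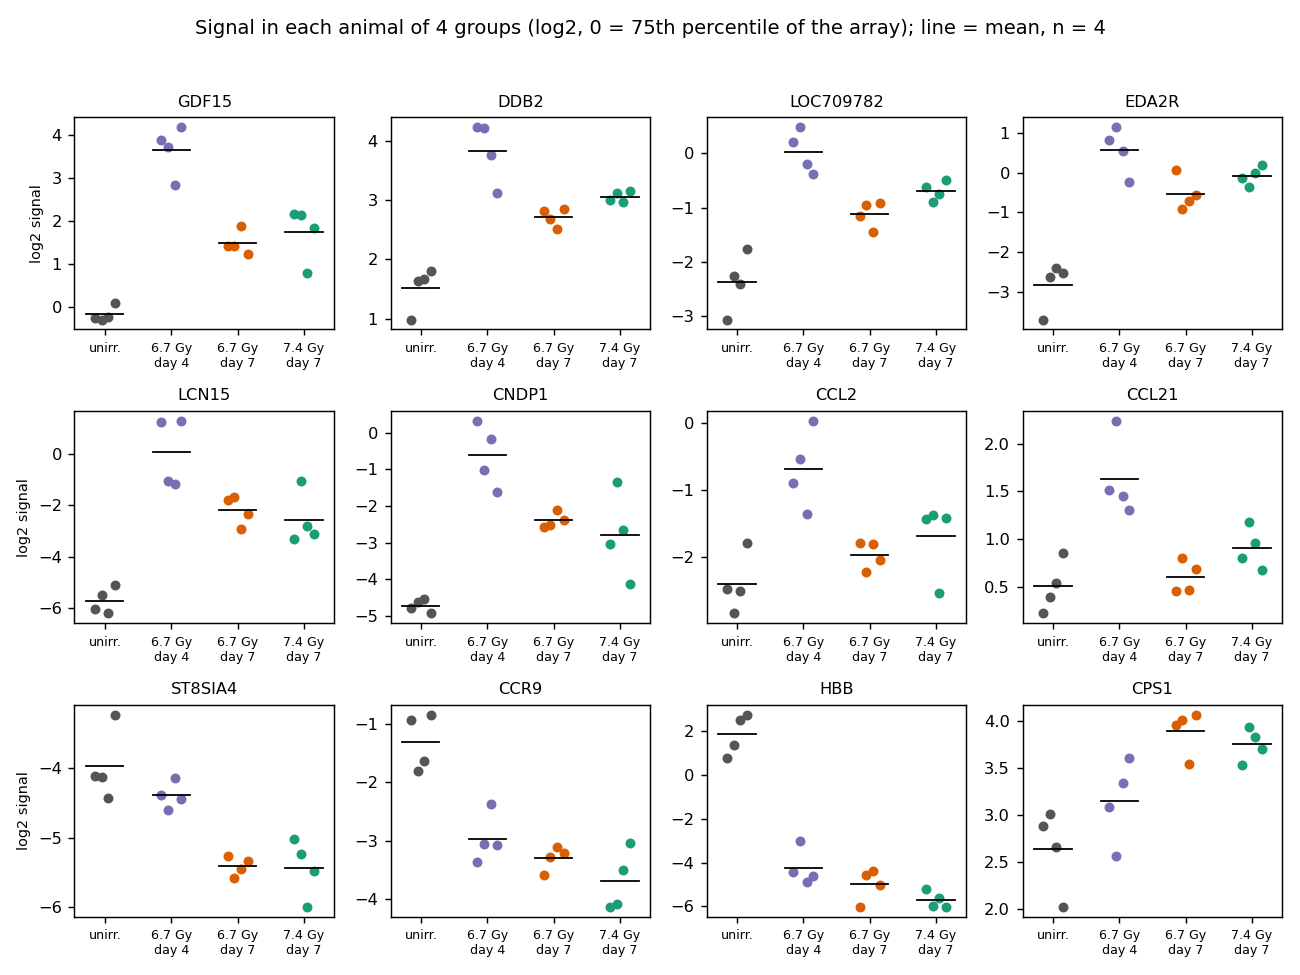
Log2 signal (y axis, 0 at the 75th percentile of the array) of 12 genes in each animal of 4 groups (x axis), unirradiated, 6.7 Gy day 4, 6.7 Gy day 7 and 7.4 Gy day 7, with the mean of 4 animals as a line. GDF15, DDB2 and LOC709782 are highest on day 4 after 6.7 Gy, HBB and CCR9 are below all controls in the 3 irradiated groups, and the 2 doses overlap on day 7 in all panels except those of DDB2 and LOC709782, where 7.4 Gy is higher.

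The higher dose was set against the lower dose on the same day. On day 7 limma called 0 of 36108 probes (0%) between 7.4 Gy and 6.7 Gy, and 141 with the fold limit kept and p under 0.05 before adjustment. Letting the prior spread follow the intensity, with robust moderation, gave 0 as well. EDA2R differed by 0.45 (7.4 Gy minus 6.7 Gy, log2, standard error 0.29), GDF15 by 0.25 (standard error 0.35), HBB by -0.71 (standard error 0.62) and CCR9 by -0.40 (standard error 0.26). DDB2, LOC709782 and CPVL were higher at 7.4 Gy in every animal, by 0.34, 0.43 and 0.62 (adjusted p = 0.992 for each), and did not pass. TLR10 (-7.80, -6.45, -7.16 and -7.25 at 7.4 Gy) and BCL2A1 (-0.76, adjusted p = 0.992) were lower at 7.4 Gy in every animal and did not pass either, and 3 of the 4 TLR10 values lay under the lowest signal well above background on their arrays. Over the 30 altered genes named by the rule the standard error of the dose difference was 0.19 to 0.73, and a p that misses the threshold does not show that the doses act alike. Without 7.4 Gy day 7 replicate 3 the count was 2, and with slide position as a covariate, which this comparison allows, it was 1.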

How the data were processed

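Agilent 4x44K rhesus arrays in 1 color were hybridized with ileal total RNA, 1 array for each of 24 animals without pooling, and scanned with Feature Extraction 11.0.1.1 per the file headers. The authors deposited scanner files with spot intensity after background subtraction, and a log2 table scaled to the 75th percentile of each array and centred on each probe's median over the 24 arrays. Here log2 of the processed intensity minus the 75th percentile of the array was used, after leaving out control spots and outlier-marked spots. A probe was tested if at least 1 of the 7 groups had it well above background on all its arrays, which left 36108 probes. They were tested with limma 3.58.1 in R 4.3.3, with the data.table package (1.17.8), 1 mean per group over all 24 arrays, two-sided, with Benjamini-Hochberg adjustment. A gene was read from its brightest tested probe over the 8 arrays compared.

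Named genes were the 12 largest rises and 15 largest falls among altered genes whose groups did not overlap, every altered member of 33 gene lists, and a set of genes reported whatever their values. Of that set, ALAS2 was not tested and CD79A, CD163, MKI67 and DEFA5 have no probe named for them. Members and lists were chosen with earlier results of these data known. Accessions of 8317 probes matched RefSeq, which renamed 956 probe symbols and named 84 probes without one, and no coordinates or sequences were used.

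Replicate n of the controls and of the day 7 group shared slide n, which the file headers give, so the slide pairs them. Deviations from the group means correlated at 0.172, 0.0347, 0.0658 and 0.214 within slides 1 to 4. With day 7 arrays of other slides, the highest correlations of control replicates 1 to 4 were 0.00785, 0.195, 0.0396 and 0.0922. The value within slide 2 was thus below the highest across slides. The fit with the slide as a block is given in the account of each comparison where it changes the call of a gene named by the rule above or of 1 of the other altered genes against the controls. The number of arrays, 4 a group, limits the precision. Other settings tried were normexp on median signals (offset 50), quantile normalization, the authors' table, other filters, moderation and array sets, each animal left out, and the methods' t-test, the latter and normexp chosen after seeing the data. The limma fit was tested on simulated data.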

Additional observations from a re-analysis of the deposited data

Results flagged for a closer look

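Among the genes named by the rule, 8 differed between day 7 and day 4 at 6.7 Gy in the direct test (limma, adjusted p under 0.05 and a fold of at least 2), with day 7 lower in each. Over all genes 41 were higher and 24 lower on day 7. The log2 differences, day 7 minus day 4, were -2.27 for LCN15, -1.78 for CNDP1, -2.16 for GDF15, -1.15 for LOC709782, -1.02 for ST8SIA4, -1.11 for DDB2, -1.02 for CCL21 and -1.28 for CCL2. With the slide as a replicate block GDF15 and CCL21 passed. Slide position and day cannot be told apart in these differences.

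Over 92 sets of 4 animals (1 gene in 1 group), 4 held an animal far from the other 3 by Dixon's test, of which chance gives about 1 in 20. In CPB2, day 7 replicate 1 was at -6.48 and the others at -7.41 to -7.32. In BTK, control replicate 4 was at -1.38, above the others at -2.72 to -2.50, and day 7 replicate 4 was at -3.94, below the others at -3.47 to -3.46. In JCHAIN, day 7 replicate 2 was at 3.75 and the others at 2.70 to 2.87.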

How the results depend on the processing

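The 85 altered probes on day 7 after 6.7 Gy against unirradiated became 36 with only the 8 arrays, 162 without the fold limit, 80 with the slide as a replicate block (70 shared with the 85), 8 with that block in the 8 arrays, 42 with normexp on median signals and 2 with the methods' t-test (370 at its unadjusted p under 0.05), and 37 to 92 with 1 animal left out, the lowest without control replicates 1 (37) and 4 (39). Quantile normalization gave 75, the values normalized by the authors 85, and no filter 66. The 128 between day 7 and day 4 became 0 with only the 8 arrays (613 unadjusted), 371 without the fold limit, 60 with the slide as a replicate block, 86 with normexp on median signals or with no filter, 0 with the methods' t-test (447 unadjusted) and 32 to 187 with 1 animal left out. The 0 between doses became 1 with slide position as a covariate and 0 to 2 with 1 animal left out. In MUC2, main change -0.05, the sign turned without day 7 replicate 1 (0.083), without control replicate 4 (0.035) and with the mean of its probes (0.0020), the range with 1 animal left out being -0.22 to 0.083. In LGR5, main change 0.08, it turned without control replicate 1 (-0.044) and with the mean of its probes (-0.031), the range with 1 animal left out being -0.044 to 0.15. Of the 30 altered genes named by the rule, 25 stayed altered with quantile normalization, 25 with the block, 21 with normexp, 12 with only the 8 arrays, 1 with the methods' t-test and 14 whichever animal was left out. With the block in the 8 arrays 6 of the 30 stayed altered. Causes of these changes were not tested, and the smaller fits also hold fewer arrays. Normexp on mean signals was not run because the mean signal is not among the columns used here. With normexp the log2 change of LOC701643 went from 4.01 to 1.31 and that of OLFM4 from 3.60 to 1.49, both near background in the controls. The medians of the smooth muscle, enteric neuron, fibroblast, platelet, coagulation, enterocyte, enteroendocrine, Paneth cell, tight junction, eosinophil, neutrophil, TNF-induced, AhR-induced and leukocyte chemokine lists changed sign under at least 1 alternative.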

Other observations

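Other members of the gene lists differed between day 7 and day 4 after 6.7 Gy, and some are named here after their values were seen. VIL1, the villin of the brush border, was higher on day 7 by 1.19 (limma, adjusted p = 0.00836). It was the 1 called among 26 enterocyte genes, where 0.288% of all genes were higher and 0.169% lower. Of the 26, 20 had a positive difference, as did 8011 of 14241 genes tested. The enterocyte mean on day 4 was 0.35, -0.06, 0.08 and -1.85 in replicates 1 to 4, against -0.05, -0.06, -0.11 and -0.20 on day 7, so day 4 replicate 4 stood apart. EGR1, an immediate early transcription factor, was lower by 1.37 (log2 difference -1.37, adjusted p = 0.0188), and PRDM1, which drives plasma cell formation, by 1.14 (log2 difference -1.14, adjusted p = 0.0247). Of 13 tested genes induced by the aryl hydrocarbon receptor, 2 were higher and 1 was lower on day 7 than on day 4. All 18 tested cholesterol synthesis genes had a positive difference, with a median of 0.33 against 0.05 for all genes and 0 altered, the largest being that of STARD4 (0.80, adjusted p = 0.12). Of 23 fibroblast and matrix genes 3 had a positive difference, with a median of -0.45 and 0 altered. Their mean on day 4 was 0.19, 1.08, 0.27 and 0.21, with replicate 2 apart, and 0.11, 0.07, -0.18 and 0.16 on day 7. The 16 metallothionein probes held 0 altered between these days, where 0.354% of all probes were altered.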
